A study of Mus musculus with 4 samples.

Results

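CpG-rich promoters were examined in ATAC-seq libraries of mouse epidermal keratinocytes, an assay in which the Tn5 transposase cuts and tags DNA that is not wrapped in nucleosomes. The regions described are peaks called at most 2 kb from the transcription start site (TSS) of a coding gene, where the 250 bp on each side of that TSS had a GC content of at least 55% and an observed over expected CpG ratio of at least 0.6. Regions were left out where a coding gene on the opposite strand started at most 1 kb away, so the promoters are one-way. The rule used sequence and annotation only, and it kept 10863 of the 82641 regions in the merged atlas of all 4 libraries (13.1%), at 8554 genes.

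Keratinocytes were sorted as EpCam+ CD49f-high cells from the skin of C57BL/6 mice after 8 days of a cream with 5% imiquimod (Aldara), a TLR7 agonist that inflames the skin. The mice were females of 8 to 12 weeks. WT and Mapk8-KO mice gave 2 libraries each, and all 4 libraries came from treated skin, so no untreated control was analysed here. In the Mapk8-KO mice, floxed Mapk8, which encodes the kinase JNK1, was deleted by a Cre recombinase under the keratin 14 promoter, which is active in basal keratinocytes. The WT mice were littermates according to the methods, and whether they carried floxed alleles or Cre is not given in the sources used here. The labels name whole skin as the source and keratinocytes as the cell type.

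CpG islands are stretches of DNA where CpG dinucleotides remain dense and mostly unmethylated. They hold the promoters of most housekeeping genes and of many developmental regulators, and in active genes a nucleosome-poor gap lies just upstream of the TSS, where general factors of the SP/KLF, NFY, ETS, NRF1 and YY1 families bind. JNK1 phosphorylates Jun, a subunit of the AP-1 transcription factor, which binds mainly at enhancers.

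The sequences below are those of the promoters that the study's genes and the motif results turn on, from RefSeq (GRCm38.p6, the assembly of mm10). Each runs from 250 bases before the RefSeq start to the first 30 transcribed bases, 5′ to 3′ on the gene's strand. Capitals mark every match to a motif, on either strand. These are GGGCGG, the box of SP and KLF factors, and CCAAT, bound by the trimeric factor NFY. They are CCGGAAG, the core site of ETS factors, the full palindrome of NRF1, which contains GCATGCGC, and TGACGTCA, the site of CREB and ATF factors. They are also AAGATGGC for YY1, CACGTG, the E-box read by basic helix-loop-helix proteins, and TGACTCA for AP-1. The last is TATAAA, the TATA box where the TATA-binding protein sits, and where motifs overlap the bases are marked once. The first 4 are Mapk8, the target of the deletion (chr14:33447129-33447408, minus strand), the mitotic regulator Cdc20 (chr4:118437314-118437593, minus strand), the EGF receptor ligand Areg (chr5:91139349-91139628, plus strand) and the receptor Egfr (chr11:16751953-16752232, plus strand).
Mapk8: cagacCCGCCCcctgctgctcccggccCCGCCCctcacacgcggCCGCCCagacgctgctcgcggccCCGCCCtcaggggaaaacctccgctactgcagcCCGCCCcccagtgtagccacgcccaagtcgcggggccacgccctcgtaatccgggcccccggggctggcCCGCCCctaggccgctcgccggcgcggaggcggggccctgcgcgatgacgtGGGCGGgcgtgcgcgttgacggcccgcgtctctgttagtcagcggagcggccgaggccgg
Cdc20: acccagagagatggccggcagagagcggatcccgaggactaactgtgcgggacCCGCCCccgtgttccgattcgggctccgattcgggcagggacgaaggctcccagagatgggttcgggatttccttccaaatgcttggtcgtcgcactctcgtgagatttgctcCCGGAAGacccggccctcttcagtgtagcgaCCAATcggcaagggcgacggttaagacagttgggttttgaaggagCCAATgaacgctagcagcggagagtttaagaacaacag
Areg: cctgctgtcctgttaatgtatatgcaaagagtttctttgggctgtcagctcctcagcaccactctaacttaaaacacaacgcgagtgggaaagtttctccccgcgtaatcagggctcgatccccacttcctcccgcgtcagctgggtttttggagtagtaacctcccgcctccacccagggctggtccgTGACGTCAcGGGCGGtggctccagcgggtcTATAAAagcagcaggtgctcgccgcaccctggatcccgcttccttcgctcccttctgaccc
Egfr: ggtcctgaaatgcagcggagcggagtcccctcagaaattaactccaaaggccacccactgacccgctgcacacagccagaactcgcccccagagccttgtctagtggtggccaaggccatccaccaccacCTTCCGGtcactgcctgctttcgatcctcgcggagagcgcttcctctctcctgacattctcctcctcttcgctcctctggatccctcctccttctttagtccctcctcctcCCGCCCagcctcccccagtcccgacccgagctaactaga

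Mapk8 held 7 matches to the SP/KLF motif and no other match, in 280 bases of 78.2% GC. Cdc20 held a single SP/KLF and a single ETS match and 2 CCAAT boxes. Areg was the promoter of this set with a TATA match, close upstream of the start, and it had a CREB/ATF and an SP/KLF match further upstream. The other 8 are, for each motif shown, the most accessible CpG-rich one-way promoter over a TSS that holds it between 250 bases before and 50 after the RefSeq start, among those with a RefSeq entry of the same symbol starting within 50 bp of the TSS used here. More accessible promoters without such an entry or match are passed over. They are Qdpr for both SP/KLF and NFY (chr5:45450200-45450479, minus strand), Mrpl17 for ETS (chr7:105811058-105811337, minus strand), Kifap3 for NRF1 (chr1:163779333-163779612, plus strand), Ing3 for CREB/ATF (chr6:21949321-21949600, plus strand), Tmem126b for YY1 (chr7:90475966-90476245, minus strand), Pkn2 for the E-box (chr3:142881975-142882254, minus strand), Rtn4 for AP-1 (chr11:29692648-29692927, plus strand) and Efnb2 for TATA (chr8:8661213-8661492, minus strand).
Qdpr: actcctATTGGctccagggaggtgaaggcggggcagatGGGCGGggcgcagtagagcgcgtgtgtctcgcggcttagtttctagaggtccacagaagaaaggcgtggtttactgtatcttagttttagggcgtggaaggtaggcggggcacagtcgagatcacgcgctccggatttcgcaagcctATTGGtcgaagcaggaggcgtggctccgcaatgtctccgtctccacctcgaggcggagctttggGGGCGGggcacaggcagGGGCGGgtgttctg
Mrpl17: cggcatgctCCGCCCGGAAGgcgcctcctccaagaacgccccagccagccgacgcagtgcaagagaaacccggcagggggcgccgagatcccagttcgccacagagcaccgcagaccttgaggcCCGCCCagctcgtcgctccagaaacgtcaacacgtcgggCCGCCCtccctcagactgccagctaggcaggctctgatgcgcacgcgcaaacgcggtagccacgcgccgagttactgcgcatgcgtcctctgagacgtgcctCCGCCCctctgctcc
Kifap3: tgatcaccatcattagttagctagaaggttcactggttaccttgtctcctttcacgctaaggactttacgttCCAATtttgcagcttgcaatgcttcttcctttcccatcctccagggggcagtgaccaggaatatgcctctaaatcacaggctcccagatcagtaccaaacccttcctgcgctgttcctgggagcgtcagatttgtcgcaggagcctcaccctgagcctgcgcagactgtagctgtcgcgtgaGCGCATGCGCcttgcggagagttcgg
Ing3: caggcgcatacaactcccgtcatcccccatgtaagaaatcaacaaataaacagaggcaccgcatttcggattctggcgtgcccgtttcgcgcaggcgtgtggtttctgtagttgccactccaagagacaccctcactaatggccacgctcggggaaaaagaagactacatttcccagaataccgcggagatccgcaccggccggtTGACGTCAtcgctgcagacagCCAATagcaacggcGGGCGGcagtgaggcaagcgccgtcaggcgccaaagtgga
Tmem126b: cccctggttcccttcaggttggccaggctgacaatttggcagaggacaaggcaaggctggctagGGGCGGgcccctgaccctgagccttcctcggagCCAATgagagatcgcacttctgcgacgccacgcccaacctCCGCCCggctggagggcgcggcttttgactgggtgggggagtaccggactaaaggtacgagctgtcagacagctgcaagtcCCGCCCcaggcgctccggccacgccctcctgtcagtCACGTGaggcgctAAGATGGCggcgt
Pkn2: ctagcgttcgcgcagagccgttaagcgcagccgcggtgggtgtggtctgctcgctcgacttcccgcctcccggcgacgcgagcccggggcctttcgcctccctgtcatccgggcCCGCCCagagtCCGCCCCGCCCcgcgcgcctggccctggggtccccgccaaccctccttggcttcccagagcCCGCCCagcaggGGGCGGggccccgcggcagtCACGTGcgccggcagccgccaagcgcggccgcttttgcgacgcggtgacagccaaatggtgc
Rtn4: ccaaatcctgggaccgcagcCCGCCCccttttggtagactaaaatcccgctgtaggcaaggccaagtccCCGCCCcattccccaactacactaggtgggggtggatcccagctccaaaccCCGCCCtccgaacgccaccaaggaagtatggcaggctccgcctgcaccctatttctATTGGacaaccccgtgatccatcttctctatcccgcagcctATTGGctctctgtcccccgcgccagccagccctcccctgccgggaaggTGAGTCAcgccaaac
Efnb2: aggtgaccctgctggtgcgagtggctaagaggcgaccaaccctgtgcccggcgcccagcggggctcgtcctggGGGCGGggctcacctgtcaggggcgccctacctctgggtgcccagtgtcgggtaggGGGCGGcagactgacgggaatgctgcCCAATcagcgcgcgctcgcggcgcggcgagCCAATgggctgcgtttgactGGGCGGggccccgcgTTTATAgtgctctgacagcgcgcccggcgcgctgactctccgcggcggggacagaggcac

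In Tmem126b the YY1 match lay inside the transcribed part. In Efnb2 the TATA match lay close upstream of the start, with 2 CCAAT boxes and 3 SP/KLF matches upstream of it. In Kifap3 the NRF1 match lay at the very start of the transcript. These are matches of letters and not measured binding sites.

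The measure of accessibility was the summit pileup, the number of sequenced fragments stacked at the highest point of a peak, recovered from the authors' peak lists. Depth differed within genotypes. Relative to WT 1, WT 2 had 0.694 times the depth, Mapk8-KO 1 had 1.12 times and Mapk8-KO 2 had 0.646 times, so levels are also given as log2 pileup centred on each library's median over the 40159 regions called in all 4 libraries. The correlation across those regions between GC content and log2 pileup was 0.078, 0.103 and 0.128 in the first 3 libraries and 0.253 in Mapk8-KO 2, which stood apart. Among marker genes, 8 of 10 keratinocyte markers had a peak within 1 kb of a TSS in all 4 libraries, and 0 of 8 leukocyte and 0 of 2 Langerhans cell markers had one in any. A few markers of other skin cells were also called in all 4 libraries, namely 3 of 6 melanocyte, 2 of 6 fibroblast and 1 of 5 endothelial markers.

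Most CpG-rich one-way promoter regions were called in every library. Of the 10863 regions, 8215 (75.6%, Wilson 95% interval 74.8 to 76.4) were called in all 4 libraries, against 48.6% of the whole atlas and 57.5% of the 5048 CpG-poor one-way promoter regions. The 8171 regions that lay over the TSS itself were called in all 4 libraries in 89.3% of cases (88.7 to 90.0). The other 2692, beside the TSS but within 2 kb of it, reached only 34.0% (32.2 to 35.8). These intervals cover counting error only. The library that missed a region was mostly a shallow one. Among members called in 3 libraries, WT 2 was the missing library for 363 and Mapk8-KO 2 for 425, whereas WT 1 was missing for 38 and Mapk8-KO 1 for 32.

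Counted by gene, 9431 coding genes had a CpG-rich one-way TSS. A peak lay within 250 bp of it for 85.8 and 80.6% of them in the WT libraries, replicate 1 before replicate 2 as in all pairs below, and for 86.3 and 82.1% in the Mapk8-KO libraries. The deeper library of each genotype gave the higher share. The means were 83.2% ± 3.74 in WT and 84.2% ± 2.96 in Mapk8-KO (SD, n = 2 each; two-sided exact permutation p = 0.667, where the smallest p possible with 2 libraries a group is 0.33). Of 13035 genes with a CpG-poor one-way TSS, 24.6, 21.1, 24.8 and 21.3% had a peak in the same order. In each library, then, most CpG-rich starts and a minority of CpG-poor ones had a peak.

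CpG-rich one-way promoters stood higher than CpG-poor promoters, and lower than bidirectional ones, in each of the 4 libraries. The median over members was 57 and 40 fragments in the WT libraries and 66 and 42 in the Mapk8-KO libraries, against 49, 34, 54 and 30 over all regions called in all 4 libraries. The 1074 bidirectional promoter regions called in all 4 had 65, 47, 78 and 48. The median over members exceeded that over CpG-poor promoters by 0.19, 0.23, 0.24 and 0.35 on the log2 scale, a mean of 0.25 ± 0.068 (SD, n = 4 libraries, 1.19-fold; two-sided exact sign-flip permutation p = 0.13, the smallest that 4 libraries allow). Where only regions over a TSS were taken in both classes the mean difference was 0.20 ± 0.076, positive in 4 of 4 libraries. Over the TSS the open region was also wider, by 127, 109, 113 and 126 bp in the same order of libraries (mean 119 ± 9.11 bp, exact sign-flip permutation p = 0.13). Members just inside the sequence thresholds had somewhat higher medians than regions just outside them. The 472 members with a TSS window of 55 to 57% GC had medians of 53, 37, 61 and 37 fragments, and 228 promoters with the CpG ratio reached but a GC of 53 to 55% had 50, 31, 54 and 36. At the other edge, 771 members with a CpG ratio of 0.60 to 0.65 had 51, 35, 60 and 37 fragments, and 416 promoters with the GC reached but a ratio of 0.55 to 0.60 had 49, 34, 55 and 35.

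**Figure D1:**
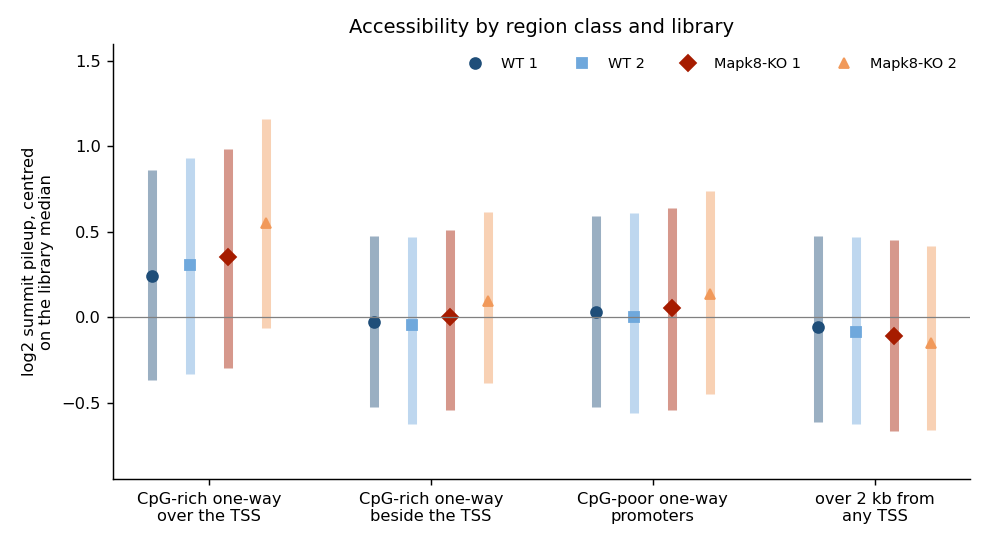
Median (symbols) and quartiles (bars) of the log2 summit pileup, centred on each library's median, for 4 classes of regions called in all 4 libraries, 2 WT and 2 Mapk8-KO. CpG-rich promoters over the TSS have the highest median of the 4 classes in every library, from 0.24 in WT 1 to 0.55 in Mapk8-KO 2, and regions over 2 kb from any TSS the lowest, with overlapping quartiles between all classes.

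The peak of accessibility lay just upstream of the start. For members over the TSS the median summit lay at −33 and −35 bp from the TSS in the WT libraries and at −33 and −36 bp in the Mapk8-KO libraries, where a minus sign marks upstream positions, and 60.6 to 63.0% of summits lay within 100 bp of the TSS. Groups did not differ beyond their spread (−34 ± 1.41 bp in WT, −34.5 ± 2.12 bp in Mapk8-KO, SD, n = 2; exact permutation p = 1). For a single promoter called in all 4 libraries the 4 summits spanned a median of 77 bp (quartiles 43 and 139). The strongest summit of the 8171 members over the TSS lay outside annotated genes in 52.5%, in an untranslated exon in 32.4%, in an intron in 11.5% and in a coding exon in 3.68%. Members beside the TSS were mostly intronic (52.9%).

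Motif shares near the strongest summit differed between CpG-rich promoters and the rest of the atlas. Within 100 bp of it, GGGCGG, the box bound by SP and KLF factors, was present in 61.7% of members (60.8 to 62.6), 28.1% of CpG-poor promoters and 17.2% of all regions. The ETS motif was present in 11.5, 4.56 and 3.12% and YY1 in 2.61, 1.56 and 1.35% in the same order. GCATGCGC, the core of the site of NRF1, a regulator of mitochondrial genes, was found in 3.69, 1.13 and 0.974%. CREB/ATF was found in 2.34, 1.47 and 0.772%, and the E-box in 7.66, 5.41 and 4.76%. CCAAT differed little, at 28.2, 27.8 and 24.5%. AP-1 went the other way, at 5.89, 15.3 and 23.7%, and so did TATA, at 2.77, 5.17 and 7.04%. The members themselves were of 2 kinds in this respect. AP-1 was found in 2.58% of those over the TSS (2.26 to 2.95) and in 15.9% of those beside it (14.6 to 17.4), close to the 15.3% of CpG-poor promoters.

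Of the 8028 genes with a member over the TSS, 6364 matched an entry of the RefSeq promoter table by symbol. In its windows of 250 bases before to 50 after the start, 70.3% of the 8193 entries of these genes held SP/KLF, against 35.7% of all 32851. For ETS the shares were 16.6 and 8.86%, for YY1 4.04 and 2.75%, for NFY 36.6 and 37.4%, for AP-1 3.27 and 5.20% and for TATA 6.14 and 13.6%. These genes were selected by the same sequence rule, so the same limit holds here.

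The motifs had their own places along the promoter. Among the 8171 members over the TSS, SP/KLF matches were densest at −60 to −40 bp, with 24.9 matches per 100 promoters in that bin of 20 bp, and CCAAT at −80 to −60 bp, with 7.37. ETS matches were densest in the last 20 bp before the start, at 3.63. YY1 was the motif with its densest bin downstream, 20 to 40 bp into the transcript, at 1.58 matches per 100 promoters. TATA matches were rare near the start except in the bin from −40 to −20 bp, where 0.955 per 100 promoters held one against 0.159 in each neighbouring bin. Their densest bin lay far upstream, from −420 to −400 bp, at 1.41.

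**Figure D2:**
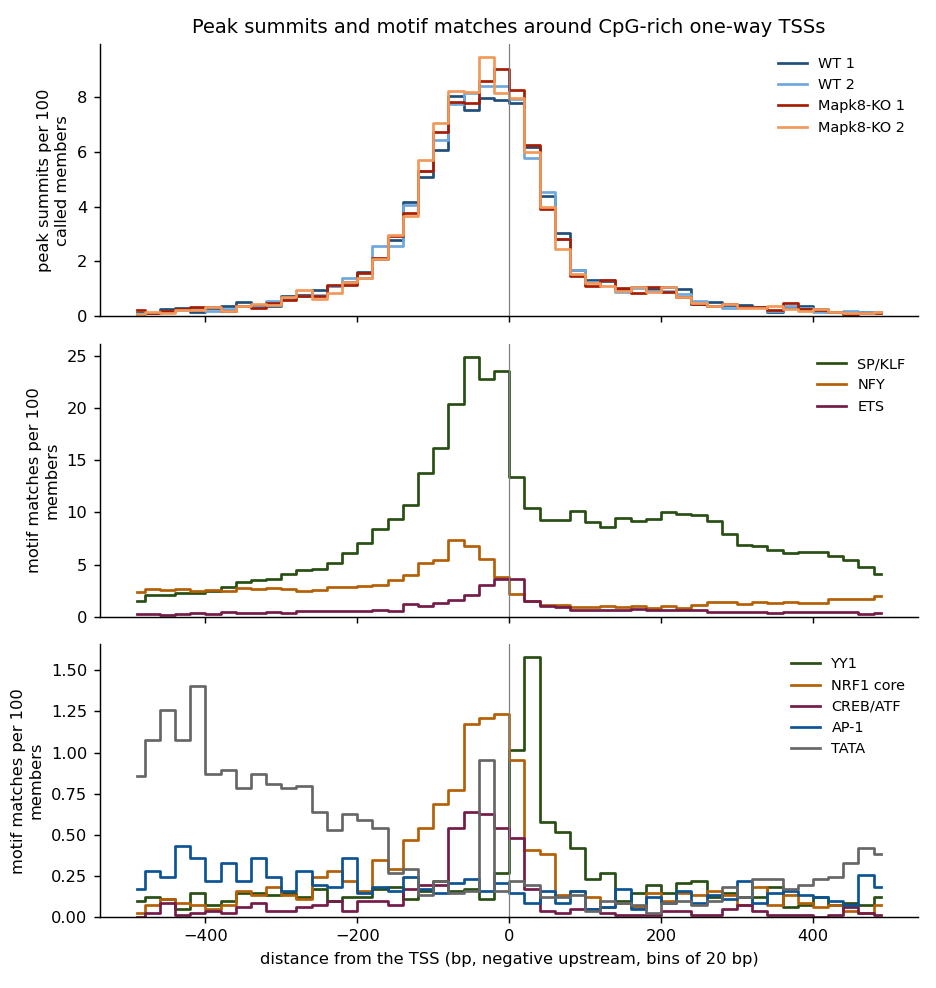
Peak summits per 100 called members in each library (top) and motif matches per 100 members (middle and bottom), by distance from the TSS in bins of 20 bp, for the 8171 members over the TSS. Summits of all 4 libraries, SP/KLF, NFY and ETS matches peak close upstream of the TSS, and YY1 matches peak 20 to 40 bp downstream. TATA matches show a narrow rise at −40 to −20 bp and are densest at −420 to −400 bp.

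Promoters with CCAAT near the summit were the more accessible ones. Among 7300 members over the TSS called in all 4 libraries, the 2297 with CCAAT had median pileups of 70 and 49 fragments in WT and 81 and 52 in Mapk8-KO, and the 5003 without had 54, 38, 64 and 40. The difference was 0.37, 0.37, 0.34 and 0.38 on the log2 scale, a mean of 0.36 ± 0.017 (SD, n = 4 libraries). It was larger than the spread between libraries and alike in both genotypes, with a Mapk8-KO minus WT difference of −0.011 (exact permutation p = 1). The level rose with the number of boxes. Medians in WT 1 were 54 fragments with 0 boxes, 62 with 1, 82 with 2 and 87.5 with 3 or more, and in Mapk8-KO 2 they were 40, 47, 59 and 63. The SP/KLF motif had a smaller difference of 0.13 ± 0.041, and its level did not rise past 2 or 3 matches.

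Other motifs went with lower levels. Promoters with YY1 had medians of 52, 36.5, 58.5 and 39 fragments against 58, 42, 69 and 44 without it, a difference of −0.19 ± 0.035 (SD, n = 4 libraries). For TATA the difference was −0.15 ± 0.061. For ETS, NRF1, CREB/ATF, the E-box and AP-1 the mean difference lay between −0.10 and 0.09. In all, 11 patterns were compared, 9 of them named here, and the exact sign-flip permutation test gave its smallest possible p of 0.13 for 8 of them (0.172 after Benjamini-Hochberg adjustment), so none could pass 0.05 with 4 libraries. The same promoters were measured in every library.

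**Figure D3:**
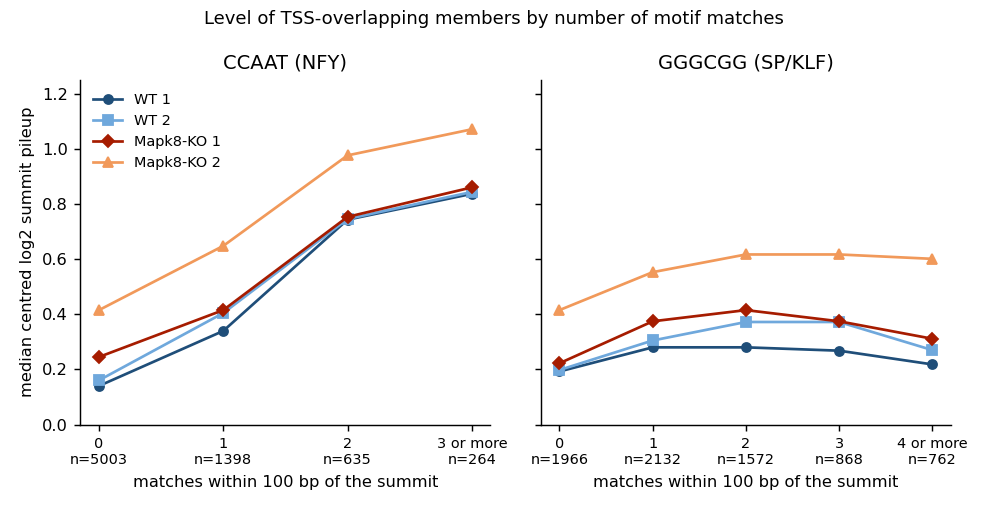
Median centred log2 summit pileup of members over the TSS by the number of CCAAT (left) or GGGCGG (right) matches within 100 bp of the summit, 1 line per library, with the number of promoters under each value. The level rises with each further CCAAT match in all 4 libraries, from 0.14 to 0.84 in WT 1, while for GGGCGG it rises from 0 to 1 match and changes little after that.

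The most accessible member was the promoter of Hjurp, the chaperone that loads the centromeric histone CENP-A. Its region (chr1:88276608-88277943, minus strand, summit at −13 bp) had 432 and 342 fragments in WT, and 574 and 316 in Mapk8-KO. It was the highest of the members in WT 1, WT 2 and Mapk8-KO 1, and Rps29 in Mapk8-KO 2 was above it. The next were Desi2 (293, 187, 325 and 220 fragments, in the same order), Pcmtd1 (259, 194, 329 and 230), Qdpr, an enzyme that recycles tetrahydrobiopterin (254, 192, 330 and 218), B3galnt2, a glycosyltransferase (278, 181, 340 and 200), and Ppp2r1a, the scaffold subunit of protein phosphatase 2A (297, 180, 324 and 197). None of these passed the test between genotypes. The widest merged regions were those of Plxnb1 (3249 bp), Ppp2r3d (3049 bp) and the glucocorticoid receptor gene Nr3c1 (2958 bp).

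The question the design puts to these promoters is whether their accessibility changes when keratinocytes lack JNK1. The targeted gene is itself a member. The Mapk8 promoter region (chr14:33446898-33447591, minus strand) was called in all 4 libraries, with 96 and 73 fragments in WT against 109 and 90 in Mapk8-KO. The groups overlapped after centring, and the log2 difference, Mapk8-KO minus WT here and below, was 0.26 ± 0.18 (SE; adjusted p = 0.615, limma with Benjamini-Hochberg adjustment over 40159 regions). The labels do not say which exons were removed, and an open promoter does not check the deletion.

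Few CpG-rich promoters were called in one genotype alone. A peak in the pair of WT libraries but in neither Mapk8-KO library was found for 75 members (0.690%, 0.551 to 0.865), where 2.17% of the atlas was, and 81 with the reverse pattern (0.746%, 0.60 to 0.93), where 1.65% of the atlas was. Most lay beside the TSS, 57 of the 75 and 48 of the 81. By contrast 443 members were called in both replicate 1 libraries alone and 12 in both replicate 2 libraries alone, the deeper and the shallower library of each genotype. AP-1 was present within 100 bp of the summit in 15 of the 75 (20%, 12.5 to 30.4) and in 3 of the 81 (3.70%, 1.27 to 10.3). Among all members it was present in 15.9% of those beside the TSS and in 2.58% of those over it. Over the whole atlas, AP-1 was present in 35.8% of the regions called in WT alone and in 7.24% of those called in Mapk8-KO alone, the same direction as in the members. The median GC content of the region was 51.9% in the first and 61.1% in the second, beside the difference in GC response of Mapk8-KO 2, whose part in these counts was not tested.

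The strongest of the WT-only members had 32 to 55 fragments in each WT library and lay off the start. They were near Zdhhc13 (48 and 45 fragments, summit at −1344 bp), Tpd52l2 (41 and 37, in an intron, with AP-1), Scyl3 (42 and 36, summit at −729 bp, with AP-1), Zfyve16 (45 and 35, summit at −1699 bp) and Ppia, which encodes cyclophilin A (55 and 32, summit at −838 bp, with AP-1). The strongest of the Mapk8-KO-only members were near Mfap3l (52 and 38 fragments, summit at −1231 bp), the collagen receptor gene Ddr1 (47 and 36, in an intron), Wwc1, which encodes the Hippo pathway protein KIBRA (44 and 30, in an intron), Gnptab (44 and 29, in an intron) and Cebpd, which encodes the transcription factor C/EBP-delta (33 and 27, in the coding exon 592 bp past the start). None of these 10 lay over its TSS, and for each the promoter's own start is outside the region.

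Members called in all 4 libraries were then compared by level. With limma, 9 of the 8215 members were higher in Mapk8-KO at an adjusted p under 0.05 and 0 were higher in WT. Over all 40159 regions 0.11% were called higher in Mapk8-KO and 0.496% higher in WT. The share of members called in the Mapk8-KO direction was 0.11% as well, at the background. At an unadjusted p under 0.05, 802 members were above WT in Mapk8-KO (9.76%, where 5.82% of all regions were) and 24 below it (0.292%, where 5.44% of all regions were). All 9 lay over the TSS.

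Rassf8, a gene of the RASSF family of cell-contact and growth regulators (chr6, plus strand), had 96 and 61 fragments in WT and 168 and 126 in Mapk8-KO. Both Mapk8-KO values were above both WT values after centring, by 0.95 ± 0.18 (log2, SE; limma adjusted p = 0.000411). It is the one of the 9 that was also called with GC correction (0.74, limma adjusted p = 0.0166). With log2 fold enrichment in place of pileup its difference was 0.46 and it was not called (limma adjusted p = 0.725). The other 8 kept differences of 0.49 to 0.88 with GC correction, at limma adjusted p of 0.0733 to 0.207. Rps29, a protein of the small ribosomal subunit, had 179 and 115 fragments in WT against 195 and 399 in Mapk8-KO. Its log2 difference of 0.98 ± 0.18 (limma adjusted p = 0.000501; 0.83 and 0.0365 with the replicate block and GC correction) rested on Mapk8-KO 2 alone. Mapk8-KO 1 lay within the WT range after centring, and without Mapk8-KO 2 the difference was 0.07 (limma adjusted p = 0.977).

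Nr4a1, an immediate early gene that encodes the nuclear receptor Nur77, had 31 and 21 fragments in WT and 48 and 54 in Mapk8-KO, a log2 difference of 1.02 ± 0.26 (limma adjusted p = 0.0292). Gigyf2, a translational repressor, had 27 and 13 against 38 and 39 (1.06 ± 0.29, limma adjusted p = 0.0484). Tgds had 35 and 25 against 65 and 47 (0.92 ± 0.24, limma adjusted p = 0.0365). Taf3, a subunit of the general initiation factor TFIID, had 44 and 46 against 98 and 64 (0.84 ± 0.21, limma adjusted p = 0.0214). In these 4 the groups did not overlap after centring, as in Stk17b, Sec63 and Lca5, which differed by 0.80, 0.79 and 0.65. The calls hung on single libraries: without Mapk8-KO 2 none of the 9 was called, without WT 2 none was, without WT 1 only Rps29 and Rassf8 were, and without Mapk8-KO 1 all 9 were.

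**Figure D4:**
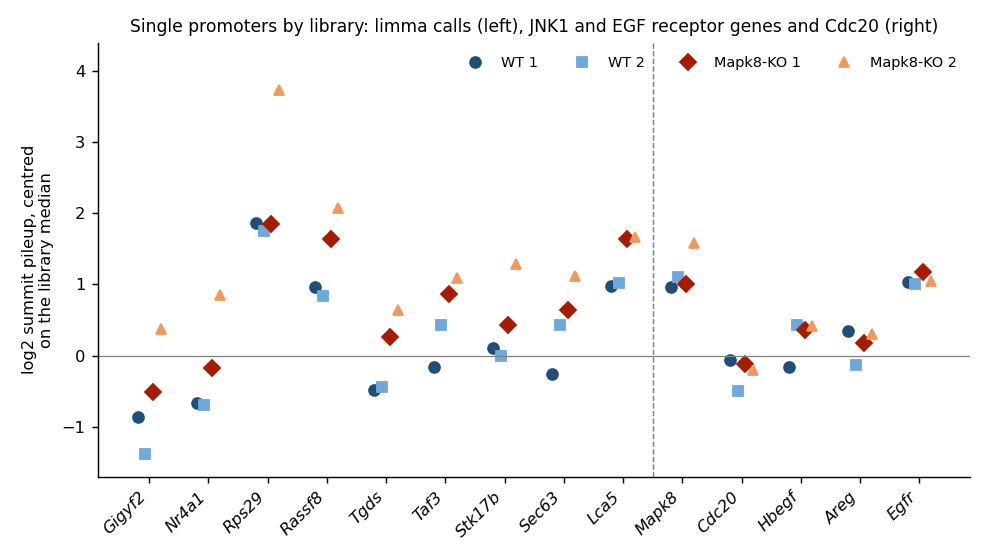
Log2 summit pileup centred on the library median, 1 symbol per library, for the 9 members called higher in Mapk8-KO by limma (left of the dashed line) and for the TSS regions of Mapk8, Cdc20, Hbegf, Areg and Egfr (right). Mapk8-KO 2 is the highest value in all 9 called promoters, and in Rps29 it stands alone at 3.73 while the other 3 libraries lie between 1.76 and 1.87.

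Ranking the regions of each library by fold enrichment over local background gave another view. A member counted as ranked higher in a genotype if both of its percentiles there exceeded both in the other genotype by 10 points or more. This was the case for 381 members towards Mapk8-KO (4.64%, against 4.07% of all regions called in all 4 libraries) and for 110 towards WT (1.34%, against 4.65%). The widest gap was at Ndufb8, a subunit of respiratory complex I, with percentiles of 13.6 and 6.2 in WT and 62.6 and 63.4 in Mapk8-KO, and pileups of 17 and 11 against 36 and 23 fragments (log2 difference 1.09 ± 0.31, limma adjusted p = 0.0649). Fam193b and Depdc5, a subunit of the GATOR1 complex, followed. Towards WT the widest gaps were at Celf5, an RNA-binding protein (37 and 24 against 24 and 14 fragments, −0.68 ± 0.30, limma adjusted p = 0.341), Mrpl58, a mitochondrial peptidyl-tRNA hydrolase, and Atp13a3, a transporter of polyamines. With percentiles of GC-corrected levels, an alternative chosen after seeing the data, the counts were 170 towards Mapk8-KO and 113 towards WT, out of 8215 members. Over all 40159 regions they were 1383 and 1627.

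As a class, CpG-rich promoters stood somewhat higher within the Mapk8-KO libraries. The median centred log2 pileup of members was 0.22 and 0.23 in the WT libraries and 0.29 and 0.49 in the Mapk8-KO libraries. The groups did not overlap, and the difference of 0.16 reached the smallest p that 2 libraries a group allow (WT 0.23 ± 0.012, Mapk8-KO 0.39 ± 0.14, mean ± SD over 2 libraries; exact permutation p = 0.33). Bidirectional promoters differed by 0.17, CpG-poor promoters by 0.08 and regions over 2 kb from any TSS by −0.06. In 36.8% of members both Mapk8-KO values were above both WT values, against 24.6% of all regions, and in 4.89% both were below, against 16.9%.

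This difference went with GC content. Among members with a region GC under 55% the median log2 difference was 0.09, between 60 and 65% it was 0.16, and at 75% or more 0.22. Other regions of 60 to 65% GC had a median of 0.16 as well, but under 55% GC they had −0.01, between 55 and 60% 0.10 against 0.15 in members, and at 75% or more 0.15. GC correction left the members under 55% GC at 0.08. Mapk8-KO 2 was the library with the highest member level in every GC bin. Without it the class difference was 0.10, and after correcting each library for GC content it was 0.008, with medians of 0.30, 0.30, 0.30 and 0.31 in the 4 libraries. The GC curves were fitted with the members included. Between 65 and 70% GC members numbered 2028 against 636 other regions, and under 55% GC 848 against 26584. The correction therefore cannot tell a GC response of the libraries apart from a shift of the class. With GC correction the members whose groups did not overlap numbered 1598 with Mapk8-KO higher and 1278 with WT higher, in place of 3027 and 402, an alternative added after seeing the data. These are counts out of 8215 members. Over all 40159 regions the counts with GC correction were 8006 and 7853, in place of 9861 and 6785.

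**Figure D5:**
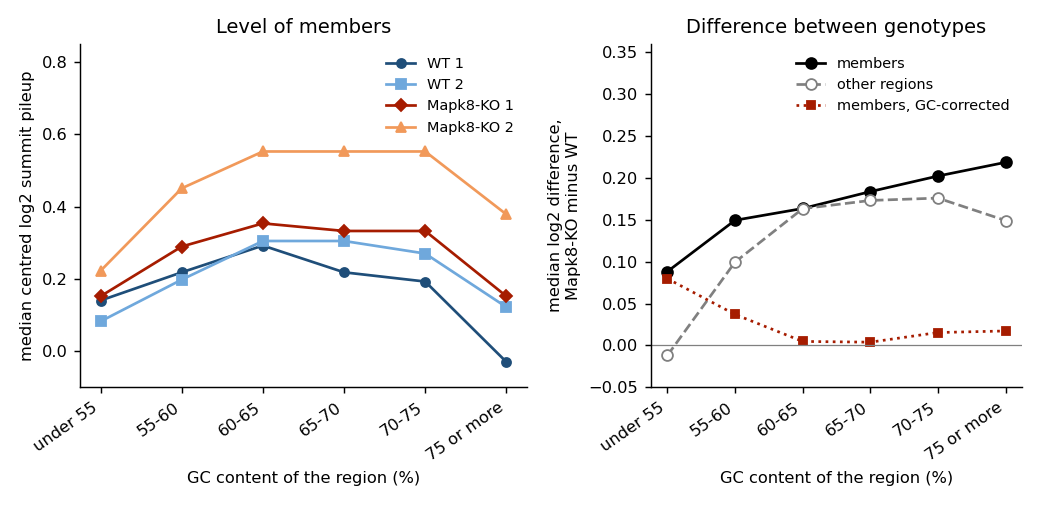
Left, median centred log2 summit pileup of members by GC content around the summit, 1 line per library. Right, median log2 difference between genotypes for members, for all other regions called in all 4 libraries, and for members after GC correction. The difference rises with GC content in members from 0.09 to 0.22, members and other regions have the same median of 0.16 at 60 to 65% GC, and after GC correction the members lie between 0.004 and 0.08.

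Width did not differ between genotypes beyond the spread. The open part of a member was 738 and 624 bp in WT and 730 and 628 bp in Mapk8-KO (medians; means 681 ± 80.6 and 679 ± 72.1 bp, SD, n = 2 each; exact permutation p = 1). The wider library in each genotype was the deeper one.

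The genes behind these promoters were read through lists by role, 1 TSS region a gene. Over all 7212 genes with a member over the TSS called in all 4 libraries, the median log2 difference was 0.18, 5801 differences were above 0, and limma called 8 genes higher in Mapk8-KO and 0 in WT. Over all 9431 genes with a CpG-rich one-way TSS, 77.5% had a peak there in all 4 libraries, and the counts of each list are to be read against that share. Among housekeeping genes, all 22 proteasome genes and all 20 RNA polymerase II and initiation factor genes with a CpG-rich one-way TSS had a peak there in all 4 libraries, as did 52 of 53 cytosolic ribosomal protein genes, 34 of 35 respiratory chain and ATP synthase genes and 13 of 14 aminoacyl-tRNA synthetases. Psmb4, a proteasome subunit, was the lowest of its list and lay lower in Mapk8-KO (31 and 21 fragments against 20 and 15, −0.54 ± 0.31, limma adjusted p = 0.513). The median differences of the 5 lists were 0.21, 0.17, 0.14, 0.18 and 0.17 in that order. Rps29 was the only gene of these 5 lists that limma called. Levels varied widely within a list: among ribosomal genes Rpl23 was the lowest at 14, 9, 19 and 10 fragments, against the values of Rps29 above. Among respiratory genes Cox7c was the highest (138, 96, 179 and 88 fragments) and Ndufb10 the lowest (17, 17, 24 and 14).

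Promoters of dividing cells were open as well. Of 24 DNA replication genes with a CpG-rich one-way TSS 23 had a peak in all 4 libraries, and of 25 mitotic genes 23. The mitotic genes had the highest median level of the 15 lists, at 0.99 above the library median on the log2 scale, and 86, 56, 99 and 58 fragments. Mad2l1, a spindle checkpoint protein, led them with 181, 138, 221 and 133 fragments, and Birc5, which encodes survivin, was lowest with 23, 17, 16 and 15. Cdc20 (chr4, minus strand) had 47 and 24 fragments in WT and 50 and 26 in Mapk8-KO, a log2 difference of 0.12 ± 0.26 (limma adjusted p = 0.905). Limma called 0 genes of either list in either direction. The largest difference was at Mcm10, a replication initiation factor, with 74 and 43 against 95 and 72 fragments (0.57 ± 0.20, limma adjusted p = 0.168).

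In the JNK and MAP kinase pathway 23 of 24 genes with a CpG-rich one-way TSS had a peak in all 4 libraries, and Mapk8ip1, a JNK scaffold protein, had none. Mapk9, which encodes the sister kinase JNK2, had 122 and 88 fragments in WT and 166 and 88 in Mapk8-KO (0.24 ± 0.17, limma adjusted p = 0.628). Map2k7, which activates JNK, had 81 and 86 against 127 and 78. Map2k1, which encodes MEK1, had the largest difference of the list (54 and 41 against 86 and 55, 0.57 ± 0.21, limma adjusted p = 0.22). The genes of AP-1 and ATF factors, the targets of the pathway, had peaks in all 4 libraries in 15 of 17 cases, and their median difference was 0.03. Jun was the highest of them (167 and 118 fragments in WT, 191 and 136 in Mapk8-KO), Fosl2 had the largest difference (76 and 45 against 93 and 64, 0.42 ± 0.20, limma adjusted p = 0.389), and Fosl1 lay lower in Mapk8-KO (54 and 43 against 58 and 28, −0.24 ± 0.23, limma adjusted p = 0.748). Limma called 0 genes of both lists.

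Of 26 EGF receptor pathway genes 24 had a peak in all 4 libraries and the receptor gene Erbb4 had none. Egfr (chr11, plus strand) had 100 and 68 fragments in WT and 122 and 62 in Mapk8-KO (0.10 ± 0.18, limma adjusted p = 0.89). Its ligand Areg had 62 and 31 against 61 and 37 (0.14 ± 0.23, limma adjusted p = 0.873). The ligand Hbegf had 44 and 46 against 69 and 40 over the TSS, and its 2 other regions, in an intron and upstream, had differences of 0.05 and 0.03. Grb2, the adaptor of the receptor, had the largest difference of the list, 35 and 20 against 38 and 41 fragments (0.60 ± 0.27, limma adjusted p = 0.365). None of these promoters passed the limma test. In 11 of the 23 genes tested both Mapk8-KO values lay above both WT values, Egfr among them, and in 0 below, against 2738 and 318 of all 7212 genes. Such counts were not particular to this list. They were 11 above and 2 below of 23 mitotic genes, and 7 and 0 of 13 aminoacyl-tRNA synthetases. Of 19 RNA polymerase II and initiation factor genes they were 2 and 3. The median difference of the EGF receptor list was 0.24, and 0.07 with GC correction.

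Epidermal genes split by the kind of promoter. Of 27 epidermal transcription factor genes 22 had a CpG-rich one-way TSS, and 19 of those had a peak in all 4 libraries. Their median level was 0.84 above the library median, second to the mitotic genes. Grhl1, a grainyhead factor, had the largest difference of the list (83 and 58 against 124 and 89, 0.62 ± 0.18, limma adjusted p = 0.0838). Of 27 basal keratin and adhesion genes 17 had such a TSS, led by the integrin gene Itgb1 (96, 84, 123 and 80 fragments). In contrast only 3 of 33 cornified envelope and terminal differentiation genes did (9.09%), and of these only Elovl4, an elongase of very long fatty acids, had a region over the TSS called in all 4 libraries. Of 40 inflammatory keratinocyte genes 16 had a CpG-rich one-way TSS, and all 16 had a peak in all 4 libraries. Nfkbiz, which encodes the IκB-ζ co-activator, was the highest (99 and 70 fragments against 128 and 70), and Tnfaip3, which encodes the NF-κB inhibitor A20, had the largest difference (51 and 25 against 57 and 51, 0.61 ± 0.23, limma adjusted p = 0.246). Limma called 0 genes of these 4 lists.

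A CpG-rich TSS did not always have a peak. Of 58 developmental transcription factor genes of other tissues with such a TSS, 35 had no peak within 250 bp in any library, among them Pax2, Neurod1, Nkx2-1, Gata4 and Otx2, regulators of kidney, neural, thyroid and lung, heart and forebrain development. Over all 9431 genes with a CpG-rich one-way TSS 1031 had none (10.9%, 10.3 to 11.6). The list still had 12 genes with a peak at the TSS in all 4 libraries, such as Sox2 and Gata6. Of the 10 genes of the list with a member over a TSS called in all 4 libraries, the highest was Isl1 (118 and 86 fragments in WT, 136 and 68 in Mapk8-KO), followed by Pax6 (126 and 84 against 135 and 57). The lowest was Wt1, at 17 and 11 against 13 and 15.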

How the data were processed

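ATAC-seq peak lists of 2 WT and 2 Mapk8-KO keratinocyte samples were used, grouped by their labels, and the series design names further samples that were not used here. Per the methods, the authors mapped reads to mm10 by Bowtie2, kept well-placed unique alignments, and called peaks in each library separately with MACS2 on paired fragments, without a control. The submitters' processing notes list STAR 2.5.3, Trimmomatic 0.36, Picard and SAMtools, the version of MACS2 is not given in the sources used here, and whether reads were shifted for Tn5 is not stated. The deposited columns hold the fold enrichment of the summit, a ratio of pileup over local background with 1 added to each, the −log10 p-value and −log10 q-value of the summit, a score made from the latter, and the summit position. The stated limit of q was 0.05, and the largest q in the lists was 0.00970.

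The fragment pileup at each summit was solved from the ratio and the −log10 p, and at least 99.996% of values came out whole within 0.05. The deposited lists give no read total, so depth was read from pileups over shared regions. Peaks of the 4 libraries were merged where they shared 1 bp, and TSSs were those of GENCODE M21 basic. Log2 pileups, centred per library, were tested with limma 3.58.1 (R 4.3.3, mean-variance trend) over the 40159 regions called in all 4 libraries, with Benjamini-Hochberg adjustment. Per-region read counts were not used here. Single values were compared by exact permutation tests in Python 3.11.15 (numpy 2.4.6, pandas 2.3.3, scipy 1.17.1), and shares have Wilson 95% intervals. GC correction subtracted a lowess curve (span 0.2) on GC content around the summit. The curve was fitted in each library over all regions called in all 4 libraries, members included.

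Nothing in the labels says whether replicates came from separate or pooled animals, so p-values measure the spread between these samples. The members, gene lists and motifs were chosen with earlier results of these data known. Named were the study's genes Mapk8, Cdc20, Hbegf, Areg and Egfr (Elovl1 and Tgm3 have no member), the up to 6 limma calls of largest difference, the 5 strongest members of each genotype alone, the 3 widest rank gaps each way, the 6 highest and 3 widest members, and the highest, lowest and most different gene of lists, of which 1 is not reported here. Stk17b, Sec63, Lca5, Mapk9, Map2k7, Fosl1, Pax6, Sox2, Gata6 and the genes named for having no peak were added after their values were seen. Alternatives covered the thresholds, overlap, normalization, filters, left-out libraries and a replicate block.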

Additional observations from a re-analysis of the deposited data

How the results depend on the processing

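With 2 libraries a group, left-out libraries moved most counts. The share of members called in every library was 76.7% with the stricter sequence thresholds, 89.3% over the TSS, 64.2% where peaks had to cover 50% of the region, and 78.4 to 80.3% with a library left out. The difference in percent called, −0.0967 points, became 0.857 over the TSS, 3.71 with lists cut to equal length, and −5.55 to 5.43 with a library left out. Members of WT alone numbered 48 with equal lists and 108 to 530 with a library left out, namely 159 without WT 1, 530 without WT 2, 514 without Mapk8-KO 1 and 108 without Mapk8-KO 2. Those of Mapk8-KO alone numbered 153 with equal lists, 122 with 50% cover, and 443, 121, 212 and 510 with the same libraries left out. Members ranked higher in WT numbered 260 at a gap of 5 points, 12 at 20 points, 45 by pileup, and 583, 381, 407 and 373 without WT 1, WT 2, Mapk8-KO 1 and Mapk8-KO 2. Those ranked higher in Mapk8-KO numbered 817 and 62 at these gaps, 170 with GC-corrected pileup, an alternative chosen after seeing the data, and 996, 1337, 1775 and 845 with the same libraries left out. Over all 40159 regions the counts at gaps of 5 and 20 points were 3459 and 312 towards Mapk8-KO, and 3478 and 493 towards WT. With GC-corrected pileup they were 1383 and 1627. Counts over all regions also rose with a library left out.

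The limma count towards Mapk8-KO was 0 without the mean-variance trend, with centring on members and with log2 fold enrichment. It was 1 with quantile normalization, GC correction, a mean pileup of at least 30 or 50% cover. Of all regions tested, 3, 21, 5 and 4 were called in that direction in the same order. With a library left out it was 0 to 165, namely 165 without Mapk8-KO 1, 2 without WT 1, 0 without WT 2 and 0 without Mapk8-KO 2. Towards WT it was 1 with GC correction and 0 to 6 with a library left out. With 1 sample left in a group, that sample is assumed to vary like the other group. Single promoters lost their call in 82 of 107 alternatives, and 0 reversed.

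The replicate numbers share only a number: the differences between replicates 1 and 2 correlated across members at r = 0.052 between genotypes, as a description over regions that share libraries. With the replicate block limma called 31 members towards Mapk8-KO and 1 towards WT, with the replicate block and GC correction 2 and 1, and the block gave 733 and 211 members by rank. Over all 40159 regions limma called 102 towards Mapk8-KO and 284 towards WT with the block, and 26 and 112 with GC correction added.

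The median summit was at −43 bp with stricter thresholds and −34.25 bp over the TSS, against −31 bp. The difference in width, −2 bp, was 0.5 bp over the TSS and −60 to 55.5 bp with a library left out. The difference in the share of CpG-rich starts with a peak was −1.67 to 3.62 points with a library left out. At least 1 motif was found in 64.6% of members within 50 bp of the summit and in 94.4% within 250 bp, against 82.5% within 100 bp. The cause of these changes was not tested. The higher level of members than of CpG-poor promoters kept its direction in every alternative run. The class difference between genotypes, 0.16, ran from 0.07 with log2 fold enrichment to 0.24 without Mapk8-KO 1. It was 0.008 with GC correction, close to no difference, but the curves of that correction were fitted with the members included. Shallow libraries limit regions of low pileup, and groups of 2 cannot pass 0.05 in a permutation test.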

Other observations

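CpG-rich starts without a peak differed in sequence from those with one. The 1031 genes with no peak within 250 bp of a CpG-rich one-way TSS in any library had a median GC content of 66.3% around it, against 65.9% for the 7305 with a peak in all 4 libraries, and a median CpG ratio of 0.74 against 0.85. The ETS motif was found at 6.40% of starts without a peak (Wilson 95% interval 5.06 to 8.06) and 18.8% of starts with one (17.9 to 19.7). CCAAT was found at 27.0% (24.3 to 29.8) and 38.5% (37.4 to 39.6), and the YY1 motif at 1.26% (0.74 to 2.15) and 4.52% (4.06 to 5.02). The shares for TATA, 5.53 and 5.33%, and for AP-1, 2.23 and 2.57%, lay closer together. Intervals cover counting error only.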
